A study of Schizosaccharomyces pombe with 7 samples.

Results

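Tf2-9 and Tf2-10 are the pair of full-length Tf2 retrotransposons on the stretch of fission yeast (Schizosaccharomyces pombe) chromosome II covered by these arrays. The members are these 2 of the 2178 genes measured, read through the probes whose midpoint lay in either element, with positions found by subtracting 1800 bases from the coordinate in the probe name to reach the reference ASM294v3. The annotated genes held 160 of the 43993 probes, 80 in each, and 320 with 2 kb of flank on each side. Taken from the outer edge of one long terminal repeat (LTR) to the outer edge of the other, as below, the elements held 196 probes, 98 in each, and 356 with their flanks.

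Newly made histone H3 carrying a FLAG tag was followed by chromatin immunoprecipitation on tiling arrays (ChIP-chip) in 4 genotypes: wild-type (3 arrays), fft3Δ (2 arrays), clr3Δ (1 array) and fft3Δ clr3Δ (1 array). All cultures grew at 30 °C in minimal medium with 8% glucose, spent 4 h in 15 mM hydroxyurea (HU, which stalls DNA replication), and were then moved to 4% sucrose with HU for 2 h to induce the tagged H3, before fixation in 1% formaldehyde. Each array carried ChIP DNA labelled red with Cy5 and, as input, whole-cell extract DNA labelled green with Cy3. Slide 1 held the first wild-type and fft3Δ arrays, slide 2 the second of each, and slide 3 clr3Δ and fft3Δ clr3Δ beside a further wild-type array. Whether the arrays of 1 genotype stand for separate cultures is not in the labels, so every p-value reflects array-to-array spread alone, possibly technical. The precision of each value is limited by how few arrays there are. No check of the deletions was made, since fft3 and clr3 are not analysed here.

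Tf2 elements are LTR retrotransposons: they are transcribed from a promoter in the 5′ LTR, reverse transcribed and inserted elsewhere in the genome, with a short duplication of the target on both sides. In fission yeast they are held down by several chromatin factors, among them CENP-B-like proteins, histone deacetylases and the HIR histone chaperone. Fft3 is a chromatin remodeller of the Fun30 group within the Snf2 family, a group known to influence where Tf2 transcription starts. Clr3 is a histone deacetylase of the SHREC complex, which silences heterochromatin.

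Tf2-9 (SPBC9B6.02C) lies on the minus strand at chrII:1812349-1817262 of ASM294v3 and is 4914 bases long. Its coding region spans 1812748 to 1816749, and its LTRs of 349 bases lie at 1812349 to 1812697 and 1816914 to 1817262. Tf2-10 (SPBC1E8.04) lies on the plus strand at chrII:1964875-1969789, is 4915 bases long and has its coding region at 1965390 to 1969390, between LTRs at 1964875 to 1965223 and 1969441 to 1969789. The reference holds 13 Tf2 genes, and Tf2-10 differs from Tf2-9 by 8 edits over the whole element (99.84% identity). Both elements are bounded by a direct repeat of 5 bases, TTAAT at Tf2-9 and TATAA at Tf2-10. The junctions are shown because the input and ratio steps described below fall on them. They were read from the RefSeq genome, 5′ to 3′ on the strand of each element, with the LTR in capitals and the unique flank in lower case.
Tf2-9 upstream junction (chrII:1817233-1817292, minus strand): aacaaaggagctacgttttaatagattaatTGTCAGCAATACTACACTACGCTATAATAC
Tf2-9 downstream junction (chrII:1812319-1812378, minus strand): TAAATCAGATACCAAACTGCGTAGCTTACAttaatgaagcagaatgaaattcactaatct
Tf2-10 upstream junction (chrII:1964845-1964904, plus strand): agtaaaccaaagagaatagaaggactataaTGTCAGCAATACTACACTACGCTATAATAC
Tf2-10 downstream junction (chrII:1969760-1969819, plus strand): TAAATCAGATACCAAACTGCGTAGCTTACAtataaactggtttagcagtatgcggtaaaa

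The LTR bases at the junctions are the same in both elements, while the flanks are unrelated. The LTRs within each element are identical, and those of Tf2-9 differ from those of Tf2-10 at 1 of 349 bases, A296G, counted from 1 at the 5′ end of the LTR, with the base of Tf2-9 first. The stretch around that base is shown because it is all that separates the LTRs, with the differing base in capitals.
Tf2-9 5′ LTR (chrII:1816948-1816987, minus strand): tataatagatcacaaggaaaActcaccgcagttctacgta
Tf2-10 5′ LTR (chrII:1965150-1965189, plus strand): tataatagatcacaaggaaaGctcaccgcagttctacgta

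This near identity decides what the probes can tell apart. Under the placement used, the sequence of a probe in the elements occurred at a median of 13 places in the reference on either strand, and LTR probes occurred at up to 64 places, since solitary LTRs share their sequence. Only 6 of the 196 probes occurred at a single place, against all 160 flank probes. The values of Tf2-9 and Tf2-10 are therefore largely the same measurement of a pool of copies across the genome, and not a pair of independent ones.

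Of the 6 probes with a single exact match, both of those in an LTR extend into a flank. The only internal one of Tf2-9 shares its central 40 bases with 14 places. The other 3 lie in the internal part of Tf2-10, and a pair of them is shown because they differ from other Tf2 elements by 1 or 2 substituted bases. They are written on the plus strand from the RefSeq genome, with the bases that differ in the nearest other Tf2 elements in capitals.
Tf2-10 probe centred 3816 bases into the element (chrII:1968661-1968720, plus strand): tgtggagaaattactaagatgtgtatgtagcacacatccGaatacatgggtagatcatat
Tf2-10 probe centred 1116 bases into the element (chrII:1965961-1966020, plus strand): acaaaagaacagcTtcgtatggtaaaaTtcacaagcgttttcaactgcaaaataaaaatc

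Positions are counted from 1 at the 5′ end of the probe, with the Tf2-10 base first. The first probe differs from all 12 other Tf2 elements by G40A alone. Its log2 input, centred on the array median, was 3.39 ± 0.19 (SD, n = 3 wild-type arrays), and the 5 multicopy probes within 150 bases of it ranged from 2.66 to 3.38. The second probe differs from 5 other elements by T14C and T28C. Its input was 2.47 ± 0.12 (SD, n = 3 wild-type arrays), below its 5 neighbours, which ranged from 2.61 to 3.42 in wild-type mean. On the second wild-type array, however, it read 2.34, above neighbours at 2.21 and 2.08. The remaining one, centred 2616 bases into the element, is 1 edit, an inserted or missing base, from 9 other Tf2 elements. Its input was 3.09, inside the 2.58 to 3.16 of its 5 neighbours. These 3 probes have their only exact match in Tf2-10. Array by array, input at the first and the last of them lay inside the range of their multicopy neighbours. At the second it was below that range in wild-type mean, but not on every array. How much of it came from other copies was not tested.

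The arrays were alike in brightness, with median processed signals from 1129 to 1363 for input and from 1126 to 1358 for ChIP. On each array 99.44% of probes or more stood well above background in both channels, and 0 spots were saturated. Of all probes, 41974 were placed on chromosome II, and 2178 genes with at least 2 probes were measured. In steps of 5 bases, an offset of 1800 gave the closest match between input and reference GC content (correlation 0.65 across 26000 probes, against 0.64 at 1795 and at 1805).

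The first question was how much new H3 the elements carried in wild-type cells. The measure is the log2 ratio of ChIP to input, with each array centred on its own median. Tf2-9 stood at 0.49, 0.54 and 0.39 on the 3 wild-type arrays, a mean of 0.47 ± 0.08 (SD, n = 3). Tf2-10 stood at 0.47, 0.53 and 0.40, a mean of 0.46 ± 0.06. Both elements were above the array median on every wild-type array, and the difference between them, at most 0.02 on any wild-type array, was smaller than the spread between arrays.

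The 2-kb flanks of both elements averaged 0.10, −0.01 and −0.02 on the same arrays. The local contrast, the mean ratio of an element minus the mean of its own flanks on the same array, was 0.37, 0.39 and 0.35 for Tf2-9 and 0.38, 0.69 and 0.48 for Tf2-10 in wild type. All 6 values were above 0, and the wider spread at Tf2-10 came with its upstream flank, whose ratio was −0.04, −0.80 and −0.19.

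**Figure D1:**
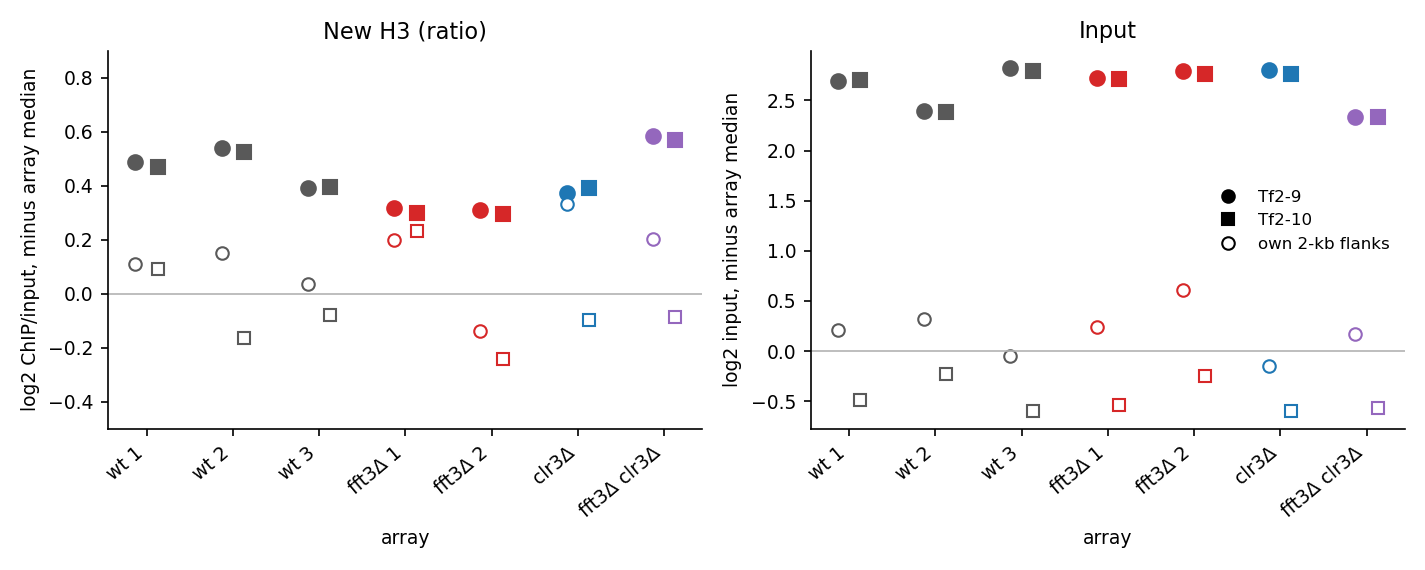
The left plot shows the mean centred log2 ratio and the right plot the mean centred log2 input of Tf2-9 (circles) and Tf2-10 (squares) on each of the 7 arrays, with their own 2-kb flanks as open symbols. Both fft3Δ arrays lay below the 3 wild-type arrays in ratio (0.29 to 0.32 against 0.39 to 0.54), the fft3Δ clr3Δ array was highest (0.58 and 0.57), and in input the fft3Δ clr3Δ array and the second wild-type array were lowest.

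Among the genes measured, the elements stood high. In wild type 87.3% of the other 2176 genes had a lower mean ratio than Tf2-9, and 87.1% had a lower one than Tf2-10, with the median gene at 0.03. Of 120 protein-coding genes on the arm with a span of 3 to 7 kb, chosen to match the length of the elements, 3 were above Tf2-9 and the median was −0.09. All 16 solitary LTRs measured on the arm, remnants of elements lost by recombination, were below both elements in wild-type mean, from −0.28 to 0.43 with a median of 0.12, although on wild-type arrays 1 and 3 a single solitary LTR exceeded both. These are descriptions of levels, not tests. Input was bright at the elements. The 427 other probes as bright averaged −0.72 in wild type, and the 99 of them with a single match averaged 0.05, 0.35 and −0.08 on the 3 wild-type arrays, a mean of 0.11. The part of probe brightness in the levels was not tested.

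**Figure D2:**
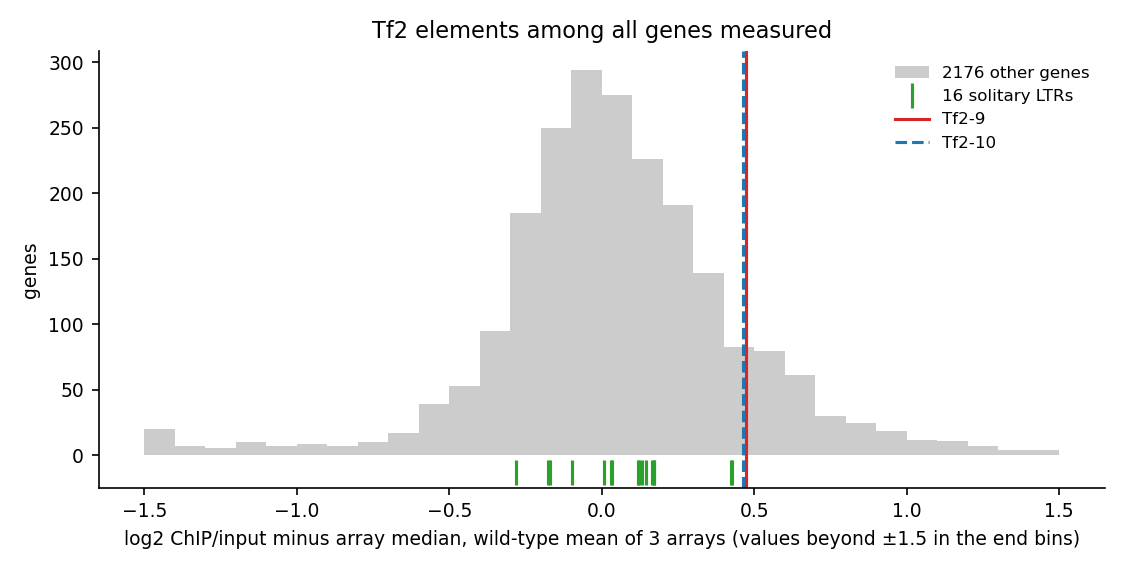
The histogram shows the wild-type mean centred log2 ratio of 2176 genes other than the elements, with values beyond the axis gathered in the end bins. The vertical lines mark Tf2-9 (0.47) and Tf2-10 (0.46), and the short green ticks mark 16 solitary LTRs, all of them left of both lines.

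The elements were not uniform along their length. The internal part of both, which holds the coding sequence for Gag, protease, reverse transcriptase and integrase, averaged 0.52, 0.60 and 0.42 on the 3 wild-type arrays (0.51 ± 0.09). Their 4 LTRs averaged 0.20, 0.12 and 0.22 (0.18 ± 0.06). The internal part was above the LTRs on each of the 3 arrays, by 0.32, 0.48 and 0.20. LTR probes were also less bright in input, at 2.40 ± 0.16 against 2.67 ± 0.24 in the internal part, and they read more places in the genome. The DNA was in fragments of 500 to 1000 bases. An LTR, or a bin as used below, is no longer than a fragment, so adjoining parts were not fully resolved.

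In bins of 500 bases along the strand of the element, the wild-type ratio of Tf2-9 went from 0.17 ± 0.14 in the first bin, which holds the 5′ LTR, to 0.73 ± 0.20 between 1000 and 1500 bases. It lay between 0.42 and 0.61 in the next 5 bins, was 0.38 ± 0.07 in the one after and 0.21 ± 0.05 in the bin from 4500 bases, which holds most of the 3′ LTR. Tf2-10 followed the same course, with 0.10 ± 0.10 in the first bin, 0.74 ± 0.18 between 1000 and 1500 bases and 0.14 ± 0.03 in the bin from 4500 bases. The elements are oriented in opposite directions on the chromosome, so the likeness holds along their own strand. Probe by probe, corresponding probes of the elements, 6 bases apart, correlated at 0.61 to 0.97 in ratio across the 7 arrays. That correlation is across 94 to 98 pairs of probes that share most of their sequence and their array.

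**Figure D3:**
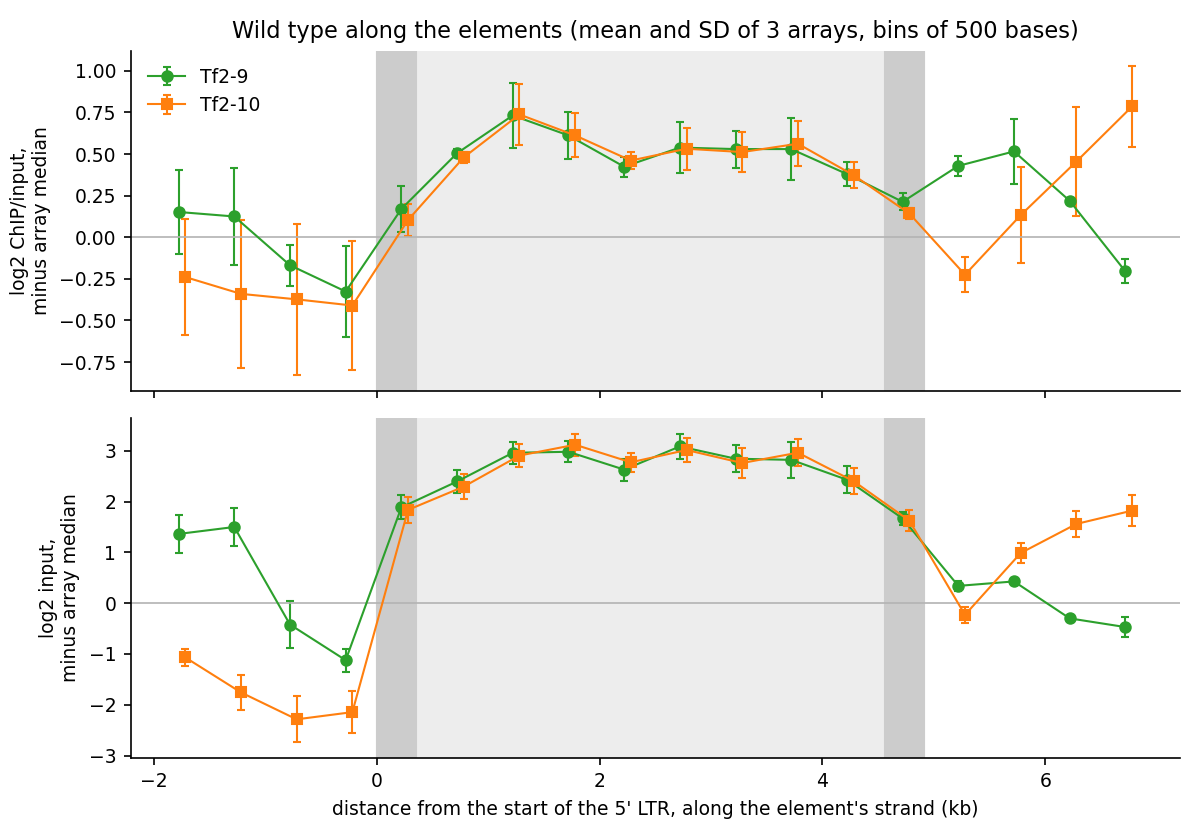
Wild-type mean and SD of 3 arrays, in bins of 500 bases along each element and its 2-kb flanks; the upper plot shows the centred log2 ratio, the lower plot the centred log2 input, and shading marks the element with the LTRs darker. Both elements peaked between 1000 and 1500 bases (0.73 and 0.74 in ratio) and stood at 0.21 and 0.14 in the last bin of the element, while their flanks differed.

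The edges of the elements were sharp in input. At Tf2-9 the last 5 whole probes before the 5′ LTR had a mean centred log2 input of −1.21 ± 0.19, and the first 5 inside it 2.35 ± 0.16. At Tf2-10 the same step ran from −1.97 ± 0.27 to 2.49 ± 0.15. At the downstream edge the input went from 2.19 ± 0.21 to 0.32 ± 0.10 at Tf2-9 and from 2.17 ± 0.13 to −0.78 ± 0.21 at Tf2-10. The ratio changed less at the edges: at the upstream edge of Tf2-9 it went from −0.32 ± 0.23 to 0.16 ± 0.10, and at its downstream edge from 0.23 ± 0.09 to 0.32 ± 0.05. At Tf2-10 the ratio went from −0.32 ± 0.40 to 0.09 ± 0.03 upstream and from 0.20 ± 0.06 to −0.22 ± 0.03 downstream.

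Over whole elements, the mean log2 input minus that of the flanks was turned into a fold. It was 4.24 to 7.77 for Tf2-9 and 6.11 to 10.64 for Tf2-10 across the 7 arrays. These folds are of fluorescence at probes of different base composition and were not calibrated to copy number.

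The second question was whether loss of Fft3 changed new H3 at the elements. Tf2-9 stood at 0.32 and 0.31 on the 2 fft3Δ arrays and Tf2-10 at 0.30 and 0.29. Both values lay below all 3 wild-type arrays for each element. Such a separation was common, however: in 8.86% of the 2178 genes both fft3Δ arrays were below all wild-type arrays.

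The differences from wild type were −0.16 ± 0.10 (SE) for Tf2-9 and −0.17 ± 0.10 for Tf2-10, and neither passed the limma fit over all genes (adjusted p = 0.999 for both). That fit called 0 of the 2178 genes (0%) at an adjusted p under 0.05, with 59 genes higher and 8 lower (0.367%) at an unadjusted limma p under 0.05. Neither element was among them. In an exact two-sided permutation over the 10 splits of the 5 arrays p was 0.2 for Tf2-9 and 0.1 for Tf2-10, where 0.1 is the smallest p the design allows. Within slides the difference was −0.17 and −0.23 for both Tf2-9 and Tf2-10 on slides 1 and 2. Of 16 alternative runs for each element, 1 turned the direction. This was loess within arrays, which removes any trend of the ratio with brightness and gave 0.04 and 0.03. On the 99 other bright probes with a single match the fft3Δ difference was 0.23 within slide 1 and −0.28 within slide 2. Their mean difference of 0.07 thus joins opposite signs. Over all 427 other bright probes the difference was 0.37 within slide 1 and −0.04 within slide 2, with a mean of 0.195.

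The lower ratio in fft3Δ was spread over the elements. All 10 bins of 500 bases in each element were lower in fft3Δ than in the wild-type mean, by 0.10 to 0.25. The ratio was lower at 95 of 98 probes of Tf2-9 and 97 of 98 of Tf2-10; neighbouring probes and the elements share fragments and sequence, so these are not independent observations. Over the first 1500 bases of both elements the arrays stood at 0.46, 0.49 and 0.41 in wild type and at 0.34 and 0.33 in fft3Δ. From 1500 to 4000 bases they stood at 0.55, 0.63 and 0.41 in wild type and at 0.34 and 0.30 in fft3Δ. The wild-type and fft3Δ arrays did not overlap in either stretch (exact permutation p = 0.1 and 0.2). Over whole genes, fft3Δ arrays lay below all wild-type arrays at 8.86%. The split at 1500 bases was not among the parts planned, and the stretches were not tested against each other.

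In the LTRs the fft3Δ arrays stood at 0.05 and 0.09, below the wild-type range of 0.12 to 0.22 (exact permutation p = 0.2). Such a separation was seen at 8.86% of whole genes. Within slides the LTR difference was −0.16 on slide 1 and only −0.02 on slide 2. The step from LTRs to the internal part was 0.30 and 0.24 in fft3Δ, inside the wild-type range of 0.20 to 0.48. The flanks did not move together: on the first fft3Δ array they averaged 0.21 and on the second −0.19. With the flanks subtracted, the local contrast in fft3Δ was 0.12 and 0.45 for Tf2-9 and 0.07 and 0.54 for Tf2-10. For Tf2-9 these values lay on either side of the wild-type arrays, and the difference from wild type was −0.09 ± 0.11 (limma adjusted p = 0.999). For Tf2-10 it was −0.21 ± 0.16 (limma adjusted p = 0.999). Without the first fft3Δ array the differences in local contrast were 0.08 and 0.02.

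**Figure D4:**
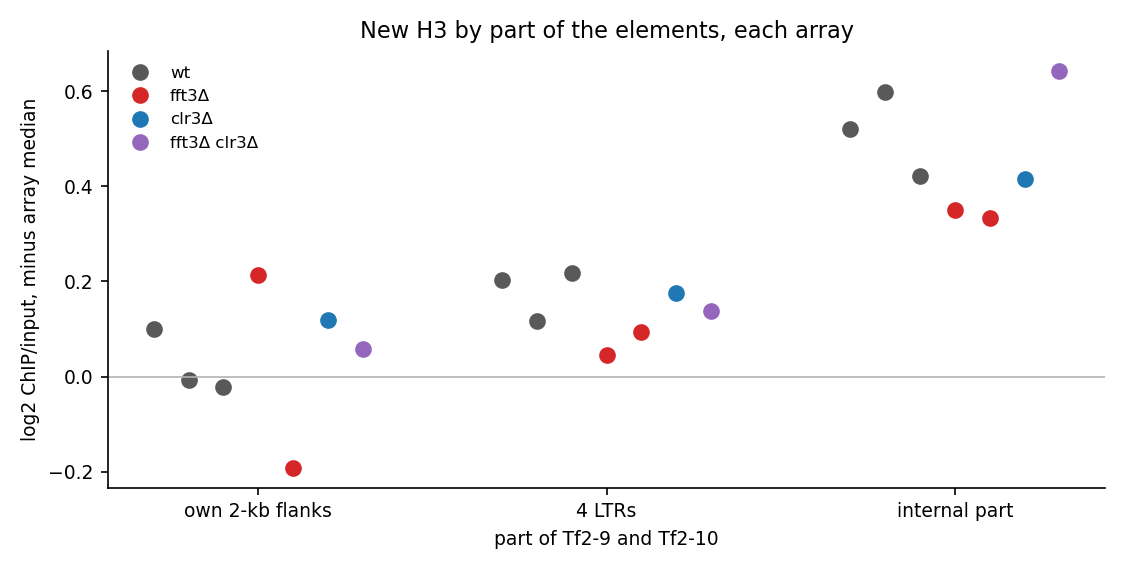
Mean centred log2 ratio of both elements together on each of the 7 arrays, for their own 2-kb flanks, their 4 LTRs and their internal part. In the internal part the fft3Δ arrays (0.35 and 0.33) lay below wild type (0.42 to 0.60) and fft3Δ clr3Δ was highest at 0.64, while in the flanks the fft3Δ arrays were the highest and the lowest (0.21 and −0.19).

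The slides differed in which channel moved with the lower ratio in fft3Δ. The centred log2 ChIP signal of both elements was 3.20, 2.93 and 3.21 in wild type and 3.06 and 3.08 in fft3Δ. The centred log2 input was 2.70, 2.39 and 2.81 in wild type and 2.72 and 2.78 in fft3Δ. In both channels the fft3Δ arrays lay inside the wild-type range, which spans the slides. Within slide 1 the fft3Δ array differed from wild type by −0.14 in ChIP signal and by 0.02 in input. Within slide 2 it differed by 0.15 in ChIP signal and by 0.39 in input, so the ratio was lower there with a higher ChIP signal. With 1 array of each genotype per slide, these within-slide differences have no test. The input difference was 0.12 ± 0.14 (SE) for Tf2-9 and 0.11 ± 0.14 for Tf2-10 (limma adjusted p = 0.874 for both, with 0% of genes called), and without the second wild-type array it was −0.001 and −0.007.

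In clr3Δ, Tf2-9 stood at 0.37 and Tf2-10 at 0.39, next to the lowest wild-type array (0.39 and 0.40), which shared their slide. The array lay below all wild-type arrays for both elements, as it did for 27.5% of genes. The differences from the wild-type mean were −0.10 ± 0.13 (SE) and −0.07 ± 0.13 (limma adjusted p = 0.991 for both), in a fit that called 1.42% of the genes. Within slide 3 they were −0.02 for Tf2-9 and −0.003 for Tf2-10. A genotype with 1 array has no spread of its own, and its SE assumes that it varies like wild type and fft3Δ.

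The flank downstream of Tf2-9 behaved differently from the element in clr3Δ. It stood at 0.24, 0.30 and 0.21 in wild type, and at 0.29 and −0.08 on the fft3Δ arrays. It was 0.61 in clr3Δ and 0.36 in fft3Δ clr3Δ, with 1 array each. The same flank holds the noncoding RNA SPNCRNA.5364 (chrII:1810820-1811113), which differed from wild type by 0.50 ± 0.15 in clr3Δ (limma adjusted p = 0.365), and SPNCRNA.1466 (chrII:1810676-1812297), which differed by 0.33 ± 0.17 (limma adjusted p = 0.991). The local contrast of Tf2-9, which subtracts this flank, was 0.04 in clr3Δ against 0.35 to 0.39 in wild type, a difference of −0.33 ± 0.14 (unadjusted p = 0.0502, limma adjusted p = 0.999, with 0% of genes called). At Tf2-10 the local contrast was 0.49, inside the wild-type range. In fft3Δ clr3Δ the local contrast was 0.38 for Tf2-9 and 0.66 for Tf2-10, and its differences from wild type, 0.01 ± 0.14 and 0.14 ± 0.20, did not pass (limma adjusted p = 0.992 and 0.960, with 0.092% of genes called).

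In fft3Δ clr3Δ, Tf2-9 stood at 0.58 and Tf2-10 at 0.57, the highest of the 7 arrays for both. That array was the highest of the 7 for 16.3% of all genes and lay above all wild-type arrays for 21.4%. The differences from wild type were 0.11 ± 0.13 (SE) and 0.11 ± 0.13 (limma adjusted p = 0.801 and 0.811), in a fit that called 3.95% of the genes. Within slide 3 they were 0.19 and 0.17. Here too loess turned the direction, to −0.20 for both. The 99 bright probes with a single match differed by 0.29, and by 0.47 within slide 3, in the same direction as the centred ratio. All 427 other bright probes differed by 1.39, and by 1.45 within slide 3, and in clr3Δ by 0.86. Their part in the loess result was not tested.

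Along the elements, 8 of 10 bins were higher in fft3Δ clr3Δ than in the wild-type mean in each element, with the largest difference 0.23 at Tf2-9 and 0.28 at Tf2-10. The LTRs averaged 0.14, inside the wild-type range, and the internal part 0.64, above it. The step from LTRs to the internal part was 0.51 on this array, against 0.20 to 0.48 in wild type.

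Input at the elements was low on the same array. It was 2.33 against 2.70, 2.39 and 2.81 in wild type, the lowest of the 7 arrays, as was the case for 23% of all genes. The input difference from wild type was −0.30 ± 0.18 for Tf2-9 and −0.29 ± 0.17 for Tf2-10 (limma adjusted p = 0.811 for both, with 0% of genes called). The centred log2 ChIP signal was 2.96, inside the wild-type range of 2.93 to 3.21. Across the 7 arrays the 2 with the lowest input at the elements, fft3Δ clr3Δ and the second wild-type array, had the 2 highest ratios. Input is the denominator of the ratio, and the part of input in the differences between genotypes was not tested.

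**Figure D5:**
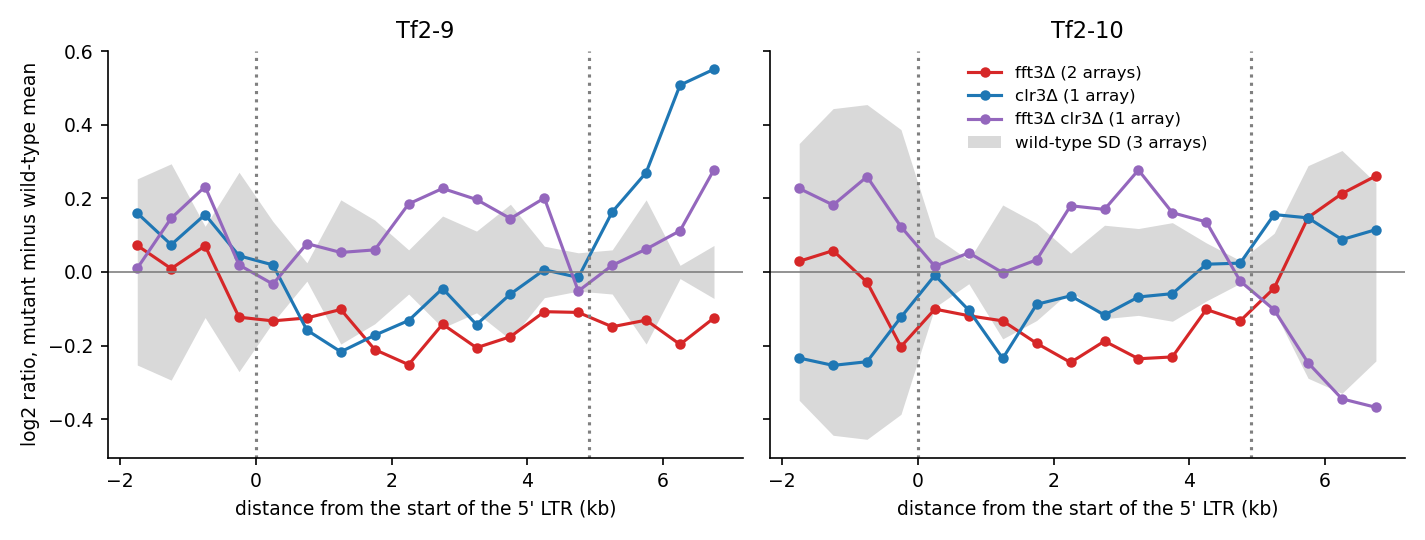
Centred log2 ratio of each mutant minus the wild-type mean, in bins of 500 bases along Tf2-9 (left) and Tf2-10 (right); dotted lines mark the outer LTR edges and the grey band the wild-type SD of 3 arrays. All 10 bins of each element lay below 0 in fft3Δ, while 8 of 10 lay above 0 in fft3Δ clr3Δ, and the clr3Δ line reached 0.55 in the last bin of the flank downstream of Tf2-9.

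The design also asks whether deletion of fft3 acts differently where clr3 is already deleted. The fft3Δ clr3Δ array exceeded the clr3Δ array of the same slide by 0.21 ± 0.16 (SE) at Tf2-9 and 0.18 ± 0.16 at Tf2-10 (limma adjusted p = 0.839 and 0.859, in a fit that called 0.0918% of the genes, 2 in all, against 36 under quantile normalization). Where clr3 was intact the difference ran the other way, at −0.16 and −0.17. The interaction, which is the difference between these effects, was 0.37 ± 0.19 for Tf2-9 and 0.35 ± 0.19 for Tf2-10 and did not pass (limma adjusted p = 0.722 for both, unadjusted p = 0.0847 and 0.0983, with 0% of genes called). Loess turned the interaction to −0.16 and −0.17.

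Genes around the elements were measured in the same fit. Of 16 other annotated genes overlapping the elements or their flanks, 14 are long noncoding RNAs and 2 are protein-coding, and 0 of 16 passed in fft3Δ, clr3Δ or fft3Δ clr3Δ (smallest limma adjusted p = 0.999, 0.365 and 0.567). Over all genes 0%, 1.42% and 3.95% were called in these comparisons, so a count of 0 among 16 is near the background and no result about the neighbours. The noncoding RNAs inside the elements read the same probes as Tf2 itself: SPNCRNA.5366 in Tf2-9 stood at 0.66, 0.75 and 0.48 in wild type and at 0.45 and 0.42 in fft3Δ, and SPNCRNA.5427 in Tf2-10 at 0.67, 0.77 and 0.50 in wild type and at 0.49 and 0.40 in fft3Δ.

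Upstream of Tf2-9 lies pib2 (chrII:1817447-1819848), which codes for a FYVE zinc finger protein annotated as a glutamine sensor. It stood at 0.04, 0.06 and −0.09 in wild type, 0.16 and −0.06 in fft3Δ, 0.16 in clr3Δ and 0.16 in fft3Δ clr3Δ. Downstream of Tf2-10 lies knh4 (chrII:1970607-1972799), which stood at 0.75, 0.83 and 0.48 in wild type, above the element on each array, and at 1.09 and 0.68 in fft3Δ. It was 0.79 in clr3Δ and 0.34 in fft3Δ clr3Δ, the lowest of its arrays, a difference from wild type of −0.34 ± 0.20 (limma adjusted p = 0.567). In fft3Δ, pib2 and knh4 differed from wild type by 0.05 ± 0.11 and 0.20 ± 0.16 (SE, limma adjusted p = 0.999 for both), where the elements had lower means. Whether the neighbours differ from the elements in pattern was not tested.

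Of 27 gene names listed for the control of Tf elements or their LTRs in fission yeast, 5 were found on the stretch measured. Of these, 0 of 5 passed in fft3Δ, clr3Δ or fft3Δ clr3Δ, where 0%, 1.42% and 3.95% of all genes did. So few genes at those shares give no result about the list. The histone demethylase gene lsd1 stood at −0.08 ± 0.04 (SD, n = 3) in wild type. The gene for Sre1, a transcription factor of the low-oxygen response that activates Tf2, stood at −0.10 ± 0.16, and ofd1, whose product controls Sre1, at 0.22 ± 0.11. The gene for Atf1, a stress-response factor known to bind near Tf1 insertion sites, stood at 0.25 ± 0.18. The gene for Slm9, a subunit of the HIR chaperone complex that represses Tf2, stood at 0.27 ± 0.14 in wild type and −0.10 in fft3Δ clr3Δ, a difference of −0.37 with a limma adjusted p of 0.456. All 5 had lower wild-type means than either element.

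The genes whose pattern over the 7 arrays was most like the mean of the elements were named by the smallest root mean square difference, after subtracting the mean of each gene. They were shq1 (0.03), SPNCRNA.5346 (0.04), sed5 (0.04), mrt4 (0.04) and SPNCRNA.4974 (0.04), against a median of 0.17 over 2171 genes that share no probe with the elements. The genes shq1, for a factor of box H/ACA snoRNP assembly, and sed5, for a SNARE protein, overlap on the chromosome and share probes. All 5 stood lower than the elements, with wild-type means from −0.39 to −0.16. The most alike, shq1, is no Tf2 copy. It stood at −0.19, −0.18 and −0.24 in wild type, −0.32 and −0.36 in fft3Δ, −0.33 in clr3Δ and −0.06 in fft3Δ clr3Δ. The genes were picked for likeness on these same arrays, so the shared pattern follows from the choice and is no separate observation.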

How the data were processed

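Scanner files of 7 two-colour arrays were used. The authors deposited processed intensities from Agilent Feature Extraction (10.7.3.1 for slide 1, 12.0.3.1 for slides 2 and 3), per the file headers, which as read here do not name the dye normalization, beside uncorrected median intensities, the log10 ratio, and other columns of spot flags; the deposited series table holds uncentred log2 ratios of the same signals. No source used here names the build behind the probe coordinates. Spots marked nonuniform or population outlier (4 to 929 per array) were left out. Log2 ratios and log2 input were centred on the array median and averaged per gene (at least 2 probes). They were fitted in limma 3.58.1 (R 4.3.3), with 1 coefficient for each genotype, all 7 arrays together, and Benjamini-Hochberg adjustment over 2178 genes. The fit was tested on simulated data with independent noise and changes larger than those at the elements. That test does not cover small changes or spread shared by a slide. Named genes were the elements, genes overlapping their flanks, a list of Tf2 host factors, and the 5 genes of most similar pattern; the members and lists were chosen with earlier results of these data known. Alternatives were normexp (on median intensities, since no mean spot signal is used here), loess, quantile and equal-spread scaling, probe filters, variance model, slide as block and leaving out arrays. Slides 1 and 2 each pair a wild-type with an fft3Δ array, and the titles of the samples mark the pair on slide 2. Deviations of arrays sharing a slide from their genotype mean correlated at 0.57 (slide 1) and 0.32 (slide 2) across genes. The deviations of the 2 fft3Δ arrays are exact opposites, so these correlations share the same fft3Δ values and are not separate observations.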

Additional observations from a re-analysis of the deposited data

How the results depend on the processing

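None of the 22 differences of Tf2-9 and Tf2-10 (ratio, local contrast and input) passed under any of 352 alternative runs; the smallest adjusted p was 0.194, and 323 runs kept the direction. Loess within arrays gave, for Tf2-9 and Tf2-10, ratio differences of 0.041 and 0.028 in fft3Δ, −0.199 and −0.198 in fft3Δ clr3Δ, −0.114 and −0.142 for fft3Δ clr3Δ minus clr3Δ, and −0.155 and −0.171 for the interaction; it turned the local contrast to 0.092 for Tf2-9 in fft3Δ and to −0.291 and −0.125 in fft3Δ clr3Δ. The cause was not tested. Some of the 323 runs that kept the direction could not have turned it. The variance model leaves each difference as it is, and leaving out a wild-type or fft3Δ array does not move fft3Δ clr3Δ minus clr3Δ. Normexp turned the local contrast of Tf2-9 in fft3Δ clr3Δ to −0.044. The local contrast of Tf2-10 in clr3Δ turned to 0.102 under quantile normalization, 0.010 under equal spread, 0.009 with 5 kb of flank and 0.014 with slide as a block. Input in fft3Δ turned to −0.070 and −0.083 under normexp, −0.132 and −0.137 under quantile normalization, and −0.187 and −0.189 under equal spread. With slide as a replicate block, which pairs the arrays of a slide, the fft3Δ ratio differences were −0.199 and −0.201, input in clr3Δ turned to −0.021 and −0.025, input in fft3Δ clr3Δ was −0.488 and −0.461, and no call on the elements changed. Leaving out 1 array at a time gave, for fft3Δ, ratio differences of −0.199 to −0.124 and −0.201 to −0.137, local contrasts of −0.251 to 0.075 and −0.449 to 0.023, and input differences of −0.001 to 0.211 and −0.007 to 0.197; for clr3Δ the local contrast of Tf2-10 was −0.092 to 0.063. Genes called over the whole table numbered 0 in fft3Δ, 3 with slide as a random block and 0 to 8 leaving out arrays (8 without the first wild-type array, 3 without the second); in clr3Δ 31, 20 with trend and robust variance, 49 with the random block and 31 to 52 leaving out arrays (52 without the second wild-type array). For fft3Δ clr3Δ minus clr3Δ they numbered 2, 4 under normexp, 36 under quantile normalization, 32 with the random block and 0 to 3 leaving out arrays (0 without either fft3Δ array); for the interaction 0, 2 under each of normexp, loess and the random block, 14 under quantile normalization and 0 to 2 leaving out arrays (2 without the second wild-type array). An alternative chosen after seeing the data, annotated genes without LTRs, gave −0.165 and −0.180 in fft3Δ. Deposited log2 values in 1-kb windows of the elements gave −0.186 in fft3Δ against −0.173. The scaling, the multicopy probes and the number of arrays (3, 2, 1 and 1 per genotype) limit these values and were not ranked, while at least 99.44% of probes were well above background.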
